A study of Oryza sativa with 6 samples.

Results

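Rubisco, the enzyme that fixes carbon dioxide in the chloroplast, is built from large subunits encoded in the chloroplast and small subunits (RbcS) encoded by a family of nuclear genes. Rubisco activase is the nuclear-encoded chloroplast ATPase that frees Rubisco's active sites from inhibitory sugar phosphates. In leaves, Rubisco is the most abundant protein and a main store of nitrogen, and autophagy is one known route by which it is carried to the vacuole for breakdown. The transcripts described here are those of 5 loci listed as RbcS genes and 1 locus listed as Rubisco activase. They were chosen by gene family and locus ID, with no threshold on a measured value, but with the counts of these libraries and the contrast of the genotypes already seen. Adjusted p-values below therefore describe where each locus falls in the fit over all loci and are not independent evidence about the list. The deposited tables gave values for 5 of the 6 listed loci, out of 57839 loci in all. LOC_Os12g19394, listed as an RbcS gene, was not analysed here.

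The study asked how autophagy bears on flowering time in rice. It compared mature leaves of wild-type plants (WT) with those of osatg5-1, a mutant in the gene for the core autophagy protein ATG5, both field-grown under natural long days and sampled at tillering, when side shoots form. Messenger RNA was sequenced in 3 libraries per genotype; the labels give neither the rice cultivar nor the kind of mutation, and osatg5-1 is a single mutant line. Nor do they say that replicates were separate plants. The p-values thus cover the spread among these libraries alone, and that spread may be technical.

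The libraries held 30927816 to 39351357 counts. Levels are given as CPM, counts scaled to library size with TMM factors, or as FPKM, the authors' values per kilobase of gene model, which alone allow levels of different loci to be compared. Correlations of log2 CPM across loci were 0.988 to 0.991 within a genotype and 0.971 to 0.978 across genotypes. These describe the libraries, since loci are not independent replicates. Changes were tested over all 23074 loci that passed the filter on low counts (edgeR quasi-likelihood test, called at a Benjamini-Hochberg adjusted p under 0.05), and all 5 loci with values passed it. In a whole leaf, fewer cells of a type and less RNA per cell cannot be told apart. No marker of another cell type could be paired with a locus ID, so the cell makeup of the leaves was not tested.

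RbcS transcripts were more abundant in osatg5-1 leaves, and the 3 abundant copies rose by different amounts. LOC_Os12g17600 rose 2.40-fold, LOC_Os12g19381 rose 1.42-fold and LOC_Os12g19470 rose 1.27-fold, whereas the barely read copy LOC_Os02g05830 and the activase locus LOC_Os11g47970 did not pass the test. Thus 3 of the 5 loci were called higher and 0 lower by edgeR, and DESeq2 gave the same numbers; 0 were lower at an unadjusted p under 0.05. Over all loci tested, 16.4% were called, 8.23% higher and 8.21% lower. Among the 102 loci of at least 1000 CPM on average, which include the 4 abundant members, 31.4% were called, 13.7% higher and 17.6% lower. The median log2 fold change was 0.35 over the 5 members, 0.00162 over all loci tested and -0.05 over the 102 abundant loci. The loci were listed with this contrast already known, so these shares are given as background and the counts are not read as a result about the list.

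LOC_Os12g17600, on chromosome 12, changed most. It stood at 2843, 2902 and 2609 CPM in WT replicates 1, 2 and 3, and at 6959.7, 6458 and 6594 CPM in osatg5-1 replicates 1, 2 and 3. Every mutant library lay far above every WT library. All mutant values lay above all WT values, by any margin, at 17.6% of all loci tested. The means were 2784.5 ± 155 and 6671 ± 259 CPM (SD, n = 3 each), a log2 fold change of 1.26 ± 0.07 (SE; 95% interval 1.11 to 1.41; adjusted p = 4.06e-06, edgeR). Its place by FPKM moved from 13 to 18 among all loci in the WT libraries to 5 in each mutant library. Of the 102 loci of at least 1000 CPM it had the highest log2 fold change and was the only 1 called with a rise of 2-fold or more. Over all loci tested, 699 (3.03%) were called with such a rise.

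LOC_Os12g19381, a second RbcS locus on chromosome 12, rose less. Its levels were 3480.4, 3438.5 and 3090.1 CPM in WT replicates 1 to 3 and 4749, 4781 and 4658 CPM in osatg5-1 replicates 1 to 3. The genotypes did not overlap, with osatg5-1 higher, as at 17.6% of all loci tested. WT replicate 3 was the lowest library, as it was at LOC_Os12g17600. The log2 fold change was 0.50 ± 0.07 (SE; 95% interval 0.354 to 0.653; adjusted p = 0.00079, edgeR, n = 3 per genotype). This was the fourth highest fold change of the 102 abundant loci.

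LOC_Os12g19470, the third abundant RbcS locus on chromosome 12, had the smallest called rise. Its levels were 1881, 1691 and 1515.5 CPM in WT replicates 1 to 3 and 2187, 2188 and 2093 CPM in osatg5-1 replicates 1 to 3. The genotypes did not overlap here either, with osatg5-1 higher, as at 17.6% of all loci tested. WT replicate 3 was again lowest. The log2 fold change was 0.35 ± 0.08 (SE; 95% interval 0.165 to 0.528; adjusted p = 0.0166, edgeR). The call was lost without WT replicate 2 (adjusted p = 0.0616), without osatg5-1 replicate 1 (adjusted p = 0.0527) and without osatg5-1 replicate 2 (adjusted p = 0.0506), while the log2 fold change stayed between 0.27 and 0.43 whichever library was left out.

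LOC_Os02g05830, the RbcS locus on chromosome 2, was barely read in these leaves. It had 71, 50 and 30 counts in WT replicates 1 to 3 and 35, 54 and 35 counts in osatg5-1 replicates 1 to 3, or 0.88 to 2.26 CPM. The genotypes overlapped, and the largest WT value was more than that of any mutant library. The log2 difference of -0.49 ± 0.35 (SE) did not pass the test (95% interval -1.27 to 0.285; adjusted p = 0.385, edgeR). With 1 library left out it ranged from -0.74 to -0.17. By FPKM it held places 16640 to 20313 among all loci, far below the copies on chromosome 12. Reads of those copies that were assigned to this locus would count here, and their part in its value was not tested.

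LOC_Os11g47970, listed as Rubisco activase and located on chromosome 11, was the most abundant or next most abundant transcript of every library. Its levels were 25285, 24897 and 25473 CPM in WT replicates 1 to 3 and 21666, 24000.0 and 22932 CPM in osatg5-1 replicates 1 to 3. By FPKM it ranked 2 in WT replicate 2 and 1 in each of the other libraries. The mutant values all lay below the WT values, as at 17.8% of all loci tested, but the log2 difference of -0.14 ± 0.06 (SE) did not pass the test (95% interval -0.285 to 0.00283; adjusted p = 0.173, edgeR, n = 3 per genotype). The interval allows a level between 0.821 and 1.00 times that of WT, a result that does not show the level to be equal. The spread between mutant libraries, 1169 CPM (SD), was larger than the 293 CPM between WT libraries, with osatg5-1 replicate 1 lowest. The log2 difference was -0.10 without that replicate and -0.17 without osatg5-1 replicate 2.

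**Figure D1:**
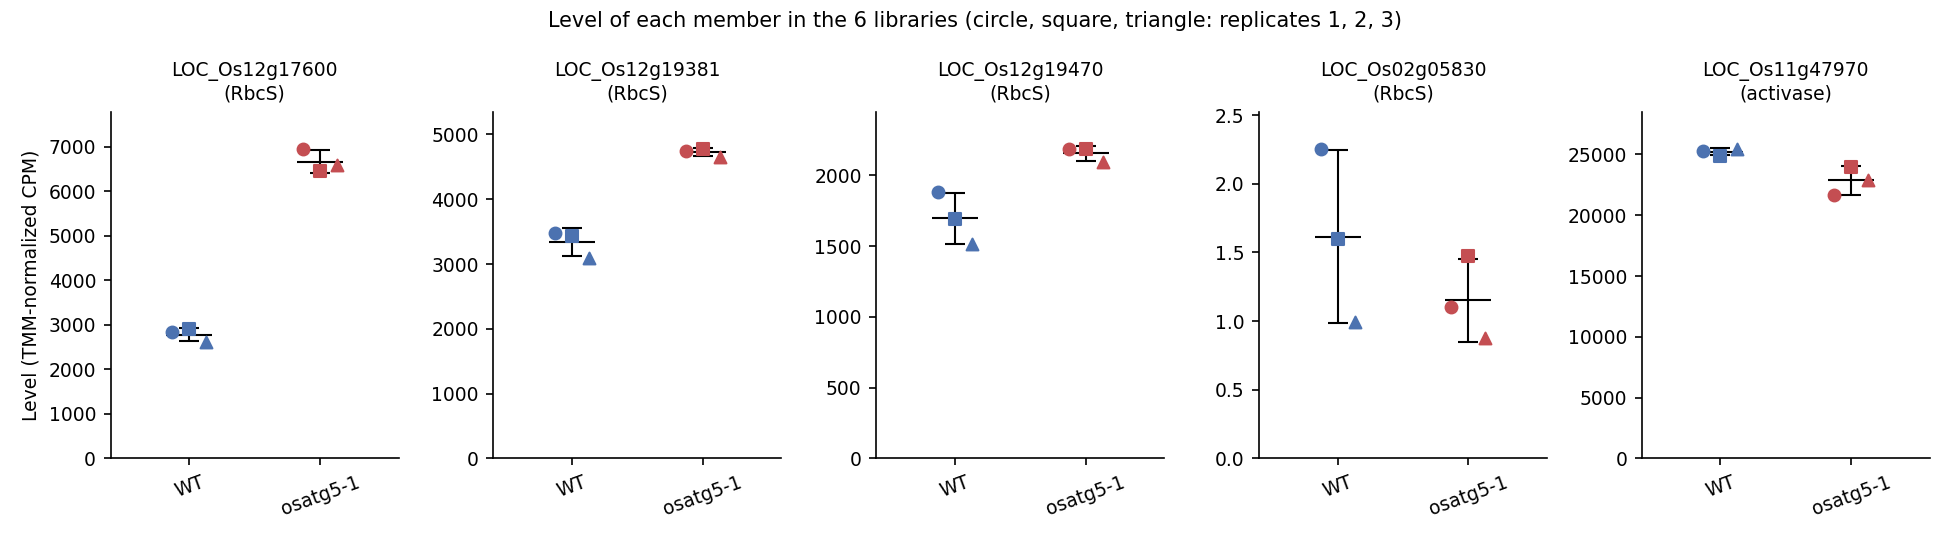
Level of each locus in TMM-normalized CPM (vertical axes from 0, each with its own scale) in the 3 WT and 3 osatg5-1 libraries, with mean and SD as bars. The genotypes are apart at the 3 RbcS loci on chromosome 12, higher in osatg5-1, overlap at LOC_Os02g05830, and lie close together at the activase locus.

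Among the most abundant leaf transcripts the RbcS rises stood at the upper end of the fold changes. In order from the highest log2 fold change, LOC_Os12g17600 was at place 1, LOC_Os12g19381 at 4, LOC_Os12g19470 at 9 and the activase locus at 70 of 102. By FPKM, LOC_Os12g19381 held places 12 to 14 among all loci in the WT libraries and 6 to 7 in the mutant libraries. LOC_Os12g19470 held places 70 to 105 in WT and 57 to 59 in osatg5-1.

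**Figure D2:**
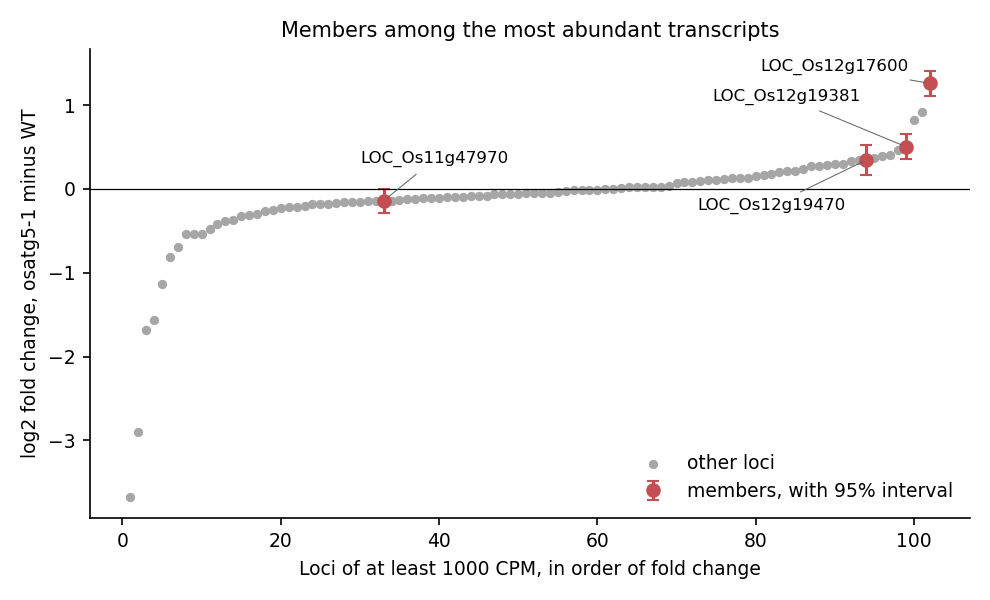
Log2 fold change (osatg5-1 minus WT) of the 102 loci of at least 1000 CPM on average, ordered from lowest to highest; members are red with 95% intervals from edgeR, other loci grey. LOC_Os12g17600 is the highest point at 1.26, and the activase locus at -0.14 lies among loci near 0.

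If each read was counted once, summing the 4 RbcS loci removes the effect of reads moved from 1 of these copies to another. Whether that was so is not given in the sources used here. Reads counted at several copies would raise the sum. Reads that were left uncounted, or that went to loci outside the sum such as LOC_Os12g19394, would also affect it. None of this was tested. The sum was 8206, 8033 and 7216 CPM in WT replicates 1 to 3 and 13897, 13429 and 13346 CPM in osatg5-1 replicates 1 to 3. The genotypes were well apart, with means of 7818 ± 529 and 13557 ± 297 CPM (SD, n = 3 each), or 1.73-fold. No test was made of the sum, because its loci were listed with the contrast known. RbcS counts made up 0.706% to 0.817% of a WT library and 1.35% to 1.41% of a mutant library. LOC_Os12g17600 gave 67.7% of the rise of the sum in CPM, LOC_Os12g19381 24.3% and LOC_Os12g19470 8.02%. Per length, in FPKM, these parts were 69.1%, 26.1% and 4.80% in the same order. Without LOC_Os12g17600 the sum in CPM was still higher in every mutant library, at 5034 ± 388 and 6887 ± 118 CPM, or 1.37-fold.

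The makeup of the RbcS transcripts differed between the genotypes. In each WT library LOC_Os12g19381 was the leading copy, ahead of LOC_Os12g17600 and LOC_Os12g19470. In each mutant library LOC_Os12g17600 led and LOC_Os12g19381 came next. LOC_Os12g17600 held 34.6%, 36.1% and 36.2% of the RbcS counts in WT replicates 1 to 3 and 50.1%, 48.1% and 49.4% in osatg5-1 replicates 1 to 3. Its mean share was 35.6% ± 0.866 in WT and 49.2% ± 1.01 in osatg5-1 (SD, n = 3 each). That difference is many times the spread between replicates and the counting error, since exact Clopper-Pearson 95% intervals of its share were 34.5% to 34.8% in WT replicate 1 and 49.9% to 50.2% in osatg5-1 replicate 1. These intervals cover counting error only.

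The share of LOC_Os12g19381 was 42.7% ± 0.234 in WT and 34.9% ± 0.713 in osatg5-1, and that of LOC_Os12g19470 was 21.7% ± 1.09 and 15.9% ± 0.339 (SD, n = 3 each). Both loci thus held a smaller share of a larger sum, and neither share overlapped between the genotypes. Counts favour longer loci, and in FPKM the share of LOC_Os12g19470 was 12.9% ± 0.72 in WT and 9.20% ± 0.216 in osatg5-1, a difference of -3.71 percentage points where counts gave -5.75. The FPKM share of LOC_Os12g19381 was 47.4% ± 0.042 and 37.6% ± 0.823, and that of LOC_Os12g17600 was 39.7% ± 0.686 and 53.2% ± 1.01 (SD, n = 3 each). LOC_Os02g05830 held 0.0137% to 0.0275% of the RbcS counts in WT and 0.00659% to 0.011% in osatg5-1. As all shares add up to the same whole, they are not independent of each other.

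**Figure D3:**
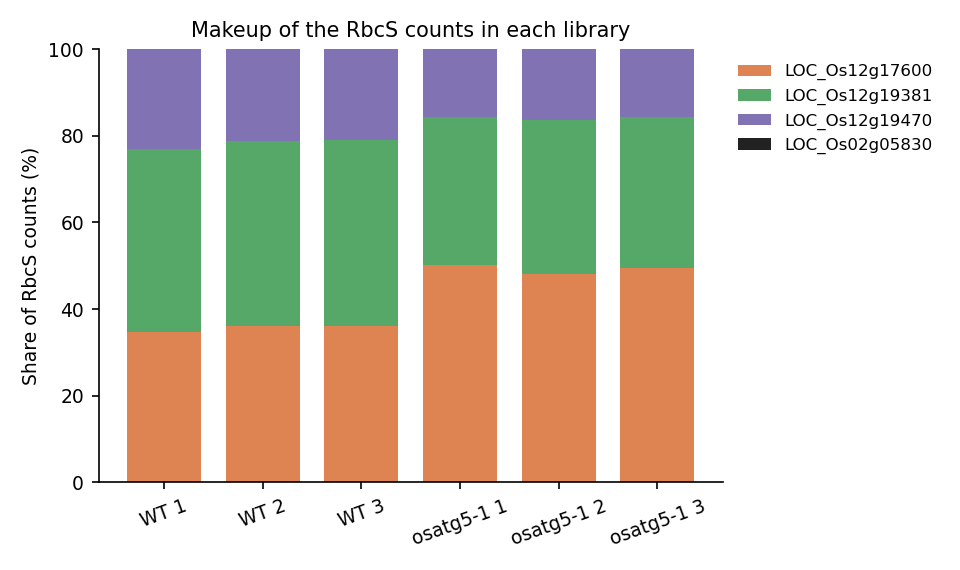
Share of each RbcS locus in the RbcS counts (%, stacked bars from 0 to 100) of each library. LOC_Os12g17600 takes 34.6% to 36.2% in WT and 48.1% to 50.1% in osatg5-1, and LOC_Os02g05830 is too low to be seen.

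Ratios between copies within a library need no scaling between libraries. The count of LOC_Os12g17600 per count of LOC_Os12g19381 was 0.817, 0.844 and 0.844 in WT replicates 1 to 3 and 1.47, 1.35 and 1.42 in osatg5-1 replicates 1 to 3. The ratio was thus below 1 in every WT library and above 1 in every mutant library, and its mean was 1.69 times as high in osatg5-1. Per count of LOC_Os12g19470, LOC_Os12g17600 stood at 1.65 ± 0.12 in WT and 3.09 ± 0.125 in osatg5-1 (SD, n = 3 each). The ratio of LOC_Os12g19381 to LOC_Os12g19470 was 1.97 ± 0.107 in WT and 2.19 ± 0.0279 in osatg5-1, a far smaller difference. It was 1.85, 2.03 and 2.04 in WT replicates 1 to 3, and every osatg5-1 library lay above these. With 3 libraries against 3, an exact permutation test cannot give a p below 0.1, and none was run on these ratios. The sources used here do not give the counting tool or how it treated reads that match several copies, so the split among copies is uncertain.

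Compared per length, the order of the copies was the same. Mean FPKM in WT was 2491 ± 175 for LOC_Os12g19381, 2087 ± 131 for LOC_Os12g17600, 680 ± 76.7 for LOC_Os12g19470 and 1.08 ± 0.498 for LOC_Os02g05830 (SD, n = 3 each). In osatg5-1 the FPKM were 3654 ± 55.7, 5169 ± 204, 894 ± 24.5 and 0.757 ± 0.196 for these loci in the same order. No pair of copies overlapped in FPKM within a genotype. The length implied by counts and FPKM was 1311 bases for LOC_Os12g17600, 1314 for LOC_Os12g19381 and 2449 for LOC_Os12g19470. LOC_Os12g19470 thus has the lowest FPKM of the abundant copies, by a wider margin than its counts show. That margin rests on the implied length, and whether the transcripts made have this length was not tested.

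The balance between activase and RbcS transcripts shifted. Activase counts per RbcS count were 3.08, 3.10 and 3.53 in WT replicates 1 to 3 and 1.56, 1.79 and 1.72 in osatg5-1 replicates 1 to 3. The means of 3.24 ± 0.254 and 1.69 ± 0.117 (SD, n = 3 each) put the mutant at 0.522 times WT, with no overlap. Per length, activase was 2.98 ± 0.227 times the sum of the 4 RbcS loci in WT and 1.51 ± 0.107 times in osatg5-1. Activase FPKM were 15638 ± 108 and 14677 ± 748, and RbcS sums 5259 ± 372 and 9718 ± 229 FPKM. RbcS reads left uncounted or assigned outside these 4 loci would make the sum too low, so the ratios may overstate activase relative to all RbcS transcripts. Reads counted at several copies would make the sum too high and the ratios too low. Neither was tested. The shift came with a higher RbcS sum, at 1.73-fold, beside an activase level that did not pass the test.

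**Figure D4:**
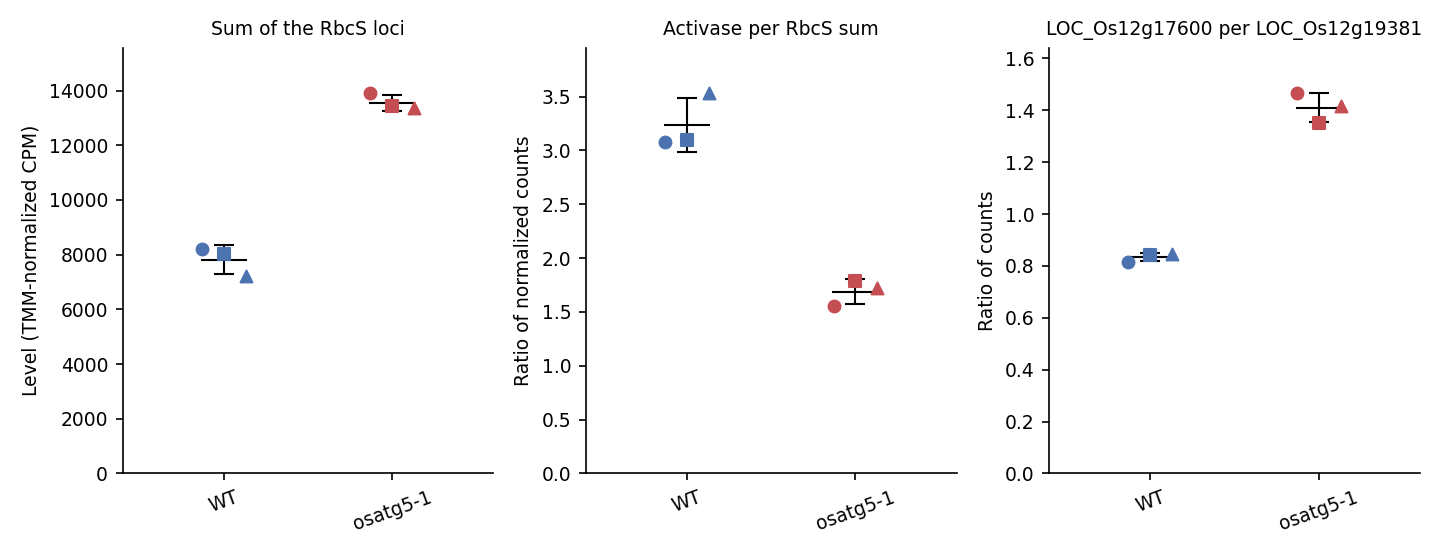
Sum of the 4 RbcS loci (TMM-normalized CPM), activase per RbcS sum and LOC_Os12g17600 per LOC_Os12g19381 in each of the 3 WT and 3 osatg5-1 libraries, with mean and SD as bars and axes from 0. The genotypes are apart in all 3 plots: the sum is 1.73-fold higher, the activase ratio 0.522 times and the ratio of the copies 1.69 times that of WT.

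LOC_Os12g19381 and LOC_Os12g19470 carry nearby locus numbers on chromosome 12, and locus numbers run along the chromosome. Of the 92 other loci with numbers from 500 below the first to 500 above the second, 15 passed the filter and 0 were called by edgeR, as were 0 at an unadjusted p under 0.05 and 0 by DESeq2, limma-voom or limma on log2(FPKM + 1). Their median log2 fold change was 0.06. Around LOC_Os12g17600, 12 of the 98 other loci within 500 numbers passed the filter and 1 was called, higher, or 2 by DESeq2. Over all loci tested, 16.4% were called by edgeR. With so few loci per window, no difference from that share was tested. No neighbour in either window exceeded 211 CPM on average, far below the RbcS loci.

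Among the 1691 other loci of at least 100 CPM on average, the levels most like the RbcS sum over the 6 libraries were those of LOC_Os05g33630 (Pearson r = 0.997 of log2 CPM) and LOC_Os02g38050 (r = 0.995). In WT and osatg5-1, LOC_Os05g33630 stood at 157 ± 10.6 and 235 ± 8.33 CPM, and LOC_Os02g38050 at 259 ± 14.9 and 946 ± 47.4 CPM (SD, n = 3 each). For the activase locus they were LOC_Os08g29160 (r = 0.998) and LOC_Os05g32220 (r = 0.994), at 243 ± 8.67 and 311 ± 3.68 CPM in WT and 197 ± 21.5 and 268 ± 23.0 CPM in osatg5-1. In all, 64 loci reached an r of 0.95 with the RbcS sum and 13 with the activase locus. The 6 points fall into 2 genotypes, so a difference between the genotypes in the same direction raises r, and these values only describe the libraries. No gene name is paired with these IDs in the sources used here.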

How the data were processed

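Per the labels' protocols, mRNA libraries were made with a stranded kit and random hexamers. The authors deposited raw counts per locus in 1 table with a column per library, and FPKM values in 1 file per library, per the file headers. HISAT2 and build IRGSP-1.0 are named per the submitters' processing notes. No source used here gives the counting tool, its strand setting or the annotation release. Genotype and replicate number came from the titles. Counts were tested in edgeR 4.0.16 (R 4.3.3) over the whole table after filterByExpr and TMM scaling, in a model of genotype alone, and the step was tested on simulated counts. The standard error is the log2 fold change divided by the square root of F. Alternatives used DESeq2 1.42.0, limma 3.58.1, other scalings and filters, a replicate block, the FPKM values with 1 added before log2, and leaving out each library; removal of each library's trend over locus length was added after the data had been seen. Totals of 30927816 to 39351357 counts put 3 counts at 0.0762 to 0.097 CPM. The smallest chi-square per degree of freedom between libraries of a genotype was 9.85, so none was counted as a repeat of another. The members and lists were chosen with earlier results of these data known. All members are named; other loci are named only as the pair whose levels correlate best with the RbcS sum or with activase. The RbcS and activase names come from the locus list: the gene table used here (ASM3414082v1) matched 1 of 57839 IDs and 0 members. Other Rubisco-related genes, markers of other cell types, OsATG5 and sequences were not analysed here for that reason.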

Additional observations from a re-analysis of the deposited data

How the results depend on the processing

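The 3 RbcS rises kept their direction under every alternative, and the calls at LOC_Os12g17600 and LOC_Os12g19381 held under each; LOC_Os12g19470 lost its call only without WT replicate 2 or osatg5-1 replicate 1 or 2. The activase locus and LOC_Os02g05830 stayed uncalled and below WT throughout. Members called numbered 3 under each other setting and 2 to 3 with 1 library left out. Loci called over the table numbered 3793, 3638 to 4014 under the other settings and 2567 to 3500 with 1 library left out; their higher share was 50.1%, but 61.5% with limma on log2(FPKM + 1), with a split of 2284 higher and 1431 lower. With the replicate block 3765 were called, 3405 of them shared with the fit without it. The numbers were not treated as pairs: the deviations of same-numbered libraries correlated at 0.054, -0.0192 and 0.13, and 3 of 6 libraries correlated best with their own number. The log2 ratio of the RbcS sum was 0.79, and 0.74 to 0.83 with 1 library left out; with the deposited FPKM it moved to 0.89. That of activase per RbcS sum was -0.94, and -0.98 to -0.87 with 1 library left out. With the deposited FPKM the share of LOC_Os12g19381 differed by -9.75 percentage points in place of -7.79 and that of LOC_Os12g19470 by -3.71 in place of -5.75; FPKM weights the copies by length by construction. LOC_Os02g05830 had only 30 to 71 counts per library. Both of these extremes came from WT libraries, replicate 3 with 30927816 and replicate 1 with 31628507 total counts. The source of this spread was not tested.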
